A study of Mus musculus with 2 samples.

Results

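The Rest stretch of chromosome 5 is a set of 30 adjacent windows of 50 kb from 76500001 to 78000000 of the mouse genome build mm10, out of 43941 windows of the whole table and 2781 of chromosome 5. It was chosen by position, and the position was selected on the measured difference between the alleles: windows around Rest held more counts on 129 than on CAS in both replicates. The 129 minus CAS difference of these libraries is therefore described here without a test. Its 5 member genes, in order along the chromosome, are Spink2, Rest, Noa1, Polr2b and Igfbp7. All 30 windows of the 50 kb grid in the stretch are in the table.

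Open chromatin was profiled with ATAC-seq (a transposase inserts sequencing adapters where DNA is accessible) in 2 replicates of 1 line, the female hybrid mouse embryonic stem cell line F121-6. Each cell carries 1 genome from 129 and 1 from castaneus (CAS) mice, so the groups compared are the 129 allele and the CAS allele of the same libraries. Cells were kept with serum and LIF on embryonic fibroblasts inactivated with mitomycin C, and nuclei of 200000 cells went into each library. The deposited table gives counts per window and allele but not, in the sources used here, what was counted (reads, fragments or sites) or at what read depth. Column totals were 44026 (129) and 46128 (CAS) counts in replicate 1 and 59812 (129) and 59995 (CAS) counts in replicate 2. Nothing in the labels says whether the replicates were separate cultures, so their spread may be technical.

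REST is a zinc finger repressor. It binds a DNA element found at many neuronal genes and recruits histone deacetylases and demethylases, which keeps those genes silent in non-neuronal cells and in progenitors. The Rest gene is active in embryonic stem cells and in most cells outside the nervous system. Its neighbours have unrelated roles. Spink2 encodes a Kazal-type serine protease inhibitor of the testis and sperm, Noa1 a GTPase of mitochondria, Polr2b the second-largest subunit of RNA polymerase II, and Igfbp7 a secreted protein that binds insulin-like growth factors.

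The members lie close together. Spink2 spans 77205106 to 77216258, and Rest 77265494 to 77286432. Noa1 spans 77294169 to 77310413 and ends 71 bases before Polr2b begins, at 77310484. Polr2b ends at 77349328 and overlaps Igfbp7 (77349240 to 77408045) by 89 bases. Rest and part of Noa1 share a window, and the rest of Noa1, all of Polr2b and the last 761 bases of Igfbp7 share the next. At a resolution of 50 kb these genes cannot be told apart within a window, and exons, introns and promoters were not separated.

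Sequences of the promoters are shown because they are the parts of these gene windows where an open site would be looked for first. RefSeq promoters (build GRCm38.p6, whose primary sequence is mm10, 250 bases before to 50 after an annotated start) were matched for 3 of the 5 members, Spink2, Polr2b and Igfbp7. Those of Spink2 lie inside its span of 77205106 to 77216258 and not at its upper-coordinate end. The mature microRNA miR-5098, whose gene lies inside Rest in the window with the most counts of the stretch, is shown with them. In the promoters, capitals mark matches to any of the motifs searched. In miR-5098 they mark the seed, bases 2 to 8.
Polr2b promoter, chr5:77310234-77310533, plus strand: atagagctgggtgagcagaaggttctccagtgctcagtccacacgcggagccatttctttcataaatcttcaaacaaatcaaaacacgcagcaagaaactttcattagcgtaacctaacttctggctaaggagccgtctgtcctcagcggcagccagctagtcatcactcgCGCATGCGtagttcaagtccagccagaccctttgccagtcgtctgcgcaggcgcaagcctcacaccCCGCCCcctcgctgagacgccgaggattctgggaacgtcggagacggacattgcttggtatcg
Igfbp7 promoter, chr5:77407996-77408295, minus strand: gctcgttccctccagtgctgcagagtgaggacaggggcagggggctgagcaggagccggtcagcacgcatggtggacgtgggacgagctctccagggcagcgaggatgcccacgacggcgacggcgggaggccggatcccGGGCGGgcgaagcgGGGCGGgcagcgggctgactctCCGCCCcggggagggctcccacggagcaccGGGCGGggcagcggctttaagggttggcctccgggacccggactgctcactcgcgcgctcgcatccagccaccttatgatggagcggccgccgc
Spink2 promoter, the one that lies farthest upstream of 3, chr5:77211422-77211721, minus strand: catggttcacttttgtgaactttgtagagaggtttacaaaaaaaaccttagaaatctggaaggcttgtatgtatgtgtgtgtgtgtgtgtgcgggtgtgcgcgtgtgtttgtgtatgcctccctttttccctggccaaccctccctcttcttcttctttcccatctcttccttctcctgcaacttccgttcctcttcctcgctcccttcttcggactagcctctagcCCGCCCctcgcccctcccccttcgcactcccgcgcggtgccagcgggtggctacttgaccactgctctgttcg
miR-5098, chr5:77272767-77272787, plus strand: gUUACAUGgugaagcccaguu

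The motifs were searched on both strands. The GC box GGGCGG was found 4 times in the Igfbp7 promoter and 1 time each in the printed promoters of Polr2b and Spink2. It is held by 35.7% of all 32851 promoters of 300 bases. The Spink2 promoters not printed held none of the motifs searched. The letters GCATGCG, the core of the NRF1 motif, were found on both strands of the Polr2b promoter at overlapping positions, and 3.58% of all promoters hold them. None of the 3 promoters printed held TATAAA (13.6% of all promoters), CCGGAAG (ETS, 8.86%), ATGGCGG (YY1, 4.05%), CCAAT (37.4%) or CACGTG (an E box, 7.15%). The Igfbp7 promoter is the richest in CpG, with 33 CpG and a GC content of 73.3%. Polr2b has 20 CpG and 54.7% GC and this Spink2 promoter 14 CpG and 54.0% GC, against medians of 7 CpG and 52.7% over all promoters. These matches describe the letters and are not evidence of binding.

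Accessibility around Rest was higher on the 129 allele over 6 adjacent windows, from 77150001 to 77450000, in both replicates. These 300 kb begin before Spink2 and end beyond the start of Igfbp7, so all 5 members lie in them. They held 24 (129) and 15 (CAS) counts in replicate 1 and 36 (129) and 21 (CAS) in replicate 2. Replicate 1 had 61.5% of these counts on 129, the 129 share (95% Clopper-Pearson interval 44.6 to 76.6%). In replicate 2 the share was 63.2% (49.3 to 75.6%). The mean was 62.3% ± 1.15 (SD, n = 2). Intervals cover counting error only.

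The window that holds Rest and the first 5832 bases of Noa1 (77250001 to 77300000) had the most counts of the stretch. On 129 it held 8 and 11 counts in replicates 1 and 2, against 6 and 6 on CAS. The CAS allele was thus open as well, and the difference was 2 counts in replicate 1 and 5 in replicate 2. This window also holds Mir5098, the gene of the microRNA printed above.

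Igfbp7 gave the second-highest window. Between 77350001 and 77400000, wholly inside the gene, 129 held 7 and 9 counts and CAS 4 and 6, a difference of 3 in each replicate. The window of the Igfbp7 start (77400001 to 77450000), with the CpG-rich promoter printed above, held 2 and 4 counts on 129 against 1 and 1 on CAS. Summed over its 3 windows Igfbp7 had 11 and 15 counts on 129 against 6 and 8 on CAS, a 129 share of 65.0% ± 0.36 (SD, n = 2). That SD is the spread of 2 shares from few counts, leaves out counting error and does not measure precision.

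Polr2b lay in the window with the fewest counts of the run. From 77300001 to 77350000, a window that also covers most of Noa1, 129 held 2 and 2 counts and CAS 1 and 1. Noa1, summed over its 2 windows, had 10 and 13 counts on 129 against 7 and 7 on CAS, of which 8 and 11 (129) and 6 and 6 (CAS) came from the window it shares with Rest. No value here separates Noa1 from Rest.

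Spink2 lay in 1 window (77200001 to 77250000) with 3 and 6 counts on 129 against 2 and 4 on CAS, a 129 share of 60.0% in both replicates. Ahead of it, the first window of the run (77150001 to 77200000) overlaps no coding gene and held 2 and 4 counts on 129 against 1 and 3 on CAS. Part of the long non-coding RNA gene Gm34598 lies there.

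The difference was carried by few counts. In 2 of the 6 windows, those of Rest and of the body of Igfbp7, 129 exceeded CAS by 2 or more in each replicate, and the other 4 windows differed by 1 count in at least 1 replicate. Over the run the 129 counts exceeded the CAS counts by 9 in replicate 1 and 15 in replicate 2, and over the whole stretch by 8 and 13. The 24 windows of the stretch outside the run had 35 and 43 counts on 129 against 36 and 45 on CAS.

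**Figure D1:**
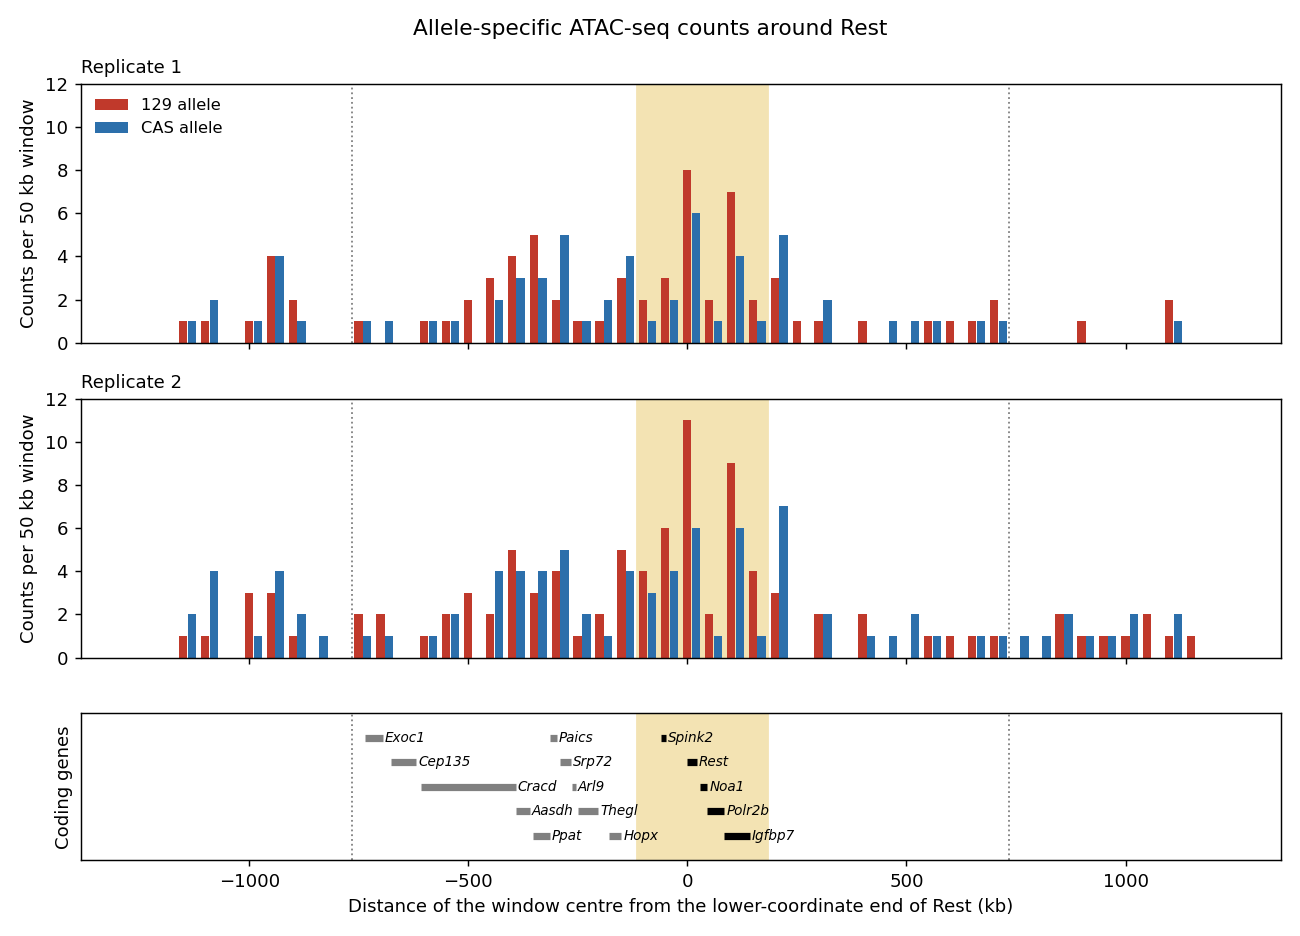
Counts per 50 kb window on the 129 (red) and CAS (blue) allele in each replicate, by distance in kb of the window centre from the lower-coordinate end of Rest, with coding genes below (black: members). The shaded 6 windows, at 24 and 36 counts on 129 against 15 and 21 on CAS, hold the 5 members, and dotted lines bound the 30 windows of the stretch.

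The lower edge of the run was not the same in the replicates. The window just outside it (77100001 to 77150000), over Hopx, which encodes a small homeodomain protein, and the long non-coding RNA gene Chaer1, held 3 and 5 counts on 129 against 4 and 4 on CAS. In replicate 1 CAS was higher there, and in replicate 2 129 was higher. The next window out (77050001 to 77100000, Thegl and Hopx) held 1 and 2 on 129 against 2 and 1 on CAS. In replicate 2 alone the run was therefore 8 windows long and began at 77050001, with 43 counts on 129 and 26 on CAS. In replicate 1 alone it kept 6 windows.

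The upper edge was at the same place in both replicates. Just inside it, the window of the Igfbp7 start held 2 and 4 counts on 129 against 1 and 1 on CAS. The window just outside (77450001 to 77500000), which holds the long non-coding RNA gene 1700017L05Rik and no coding gene, held 3 and 3 counts on 129 against 5 and 7 on CAS. It was the one window of the stretch where CAS exceeded 129 by 2 or more in each replicate.

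**Figure D2:**
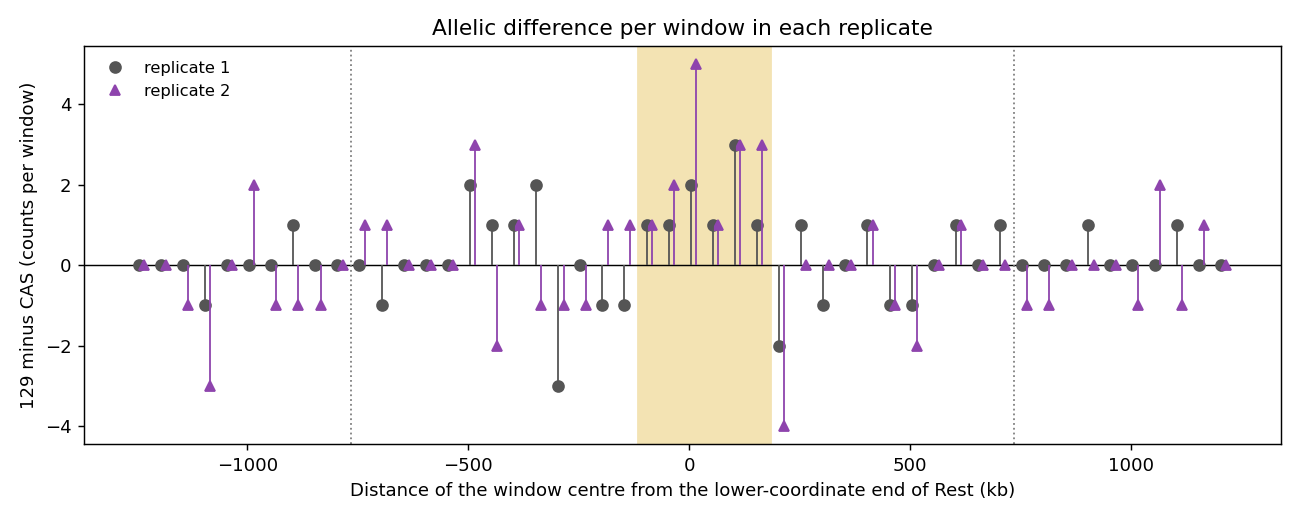
The 129 count minus the CAS count of each 50 kb window, with circles for replicate 1 and triangles for replicate 2, by distance in kb from the lower-coordinate end of Rest. In the shaded 6 windows all 12 points lie above 0, and in the window just after them they lie at -2 and -4.

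After the run the stretch held no coding gene, and its windows there averaged 4.55 counts, against 4.78 over all windows. Igfbp7 is its last coding gene, and the next on the chromosome, Adgrl3, a gene of a neuronal adhesion receptor, begins at 81019085, 3611 kb farther on. The 11 windows after the run held 11 and 11 counts on 129 against 12 and 16 on CAS, a 129 share of 47.8% (26.8 to 69.4%) in replicate 1 and 40.7% (22.4 to 61.2%) in replicate 2. The first of them (77450001 to 77500000) held 18 counts, with 3 and 3 on 129 against 5 and 7 on CAS. In 2 of the 11 windows 129 was higher in both replicates and in 3 CAS was. Over all windows 8.96% had 129 and 9.87% CAS higher. A pair of adjacent windows from 77700001 to 77800000 had 0 and 0 counts on 129 against 2 and 3 on CAS.

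Before the run lie 10 further coding genes, in 13 windows with 24 and 32 counts on 129 against 24 and 29 on CAS. Their 129 share was 50.0% (35.2 to 64.8%) in replicate 1 and 52.5% (39.3 to 65.4%) in replicate 2. Replicates went opposite ways in 5 of these 13 windows, where they did so in 3335 of all 43941 windows and 248 of 2781 on chromosome 5. The long gene Cracd, whose protein regulates actin capping, had 11 and 13 counts on 129 against 7 and 11 on CAS over 5 windows. One of these (76750001 to 76800000) had 2 and 3 counts on 129 and 0 on CAS in both replicates.

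Ppat and Paics encode enzymes of purine synthesis and lie head to head, and the start of Ppat shares with Paics a window (76950001 to 77000000) that also holds Srp72, a gene of the signal recognition particle. That window held 2 and 4 counts on 129 against 5 and 5 on CAS, and the window with the remaining, larger part of Ppat (76900001 to 76950000) held 5 and 3 on 129 against 3 and 4 on CAS, with opposite directions in the replicates. Summed over both windows Ppat had 7 and 7 on 129 against 8 and 9 on CAS. Aasdh, an acyl-CoA synthetase family gene, had 9 and 8 counts on 129 against 6 and 8 on CAS. Exoc1 (a subunit of the exocyst) had 1 and 4 on 129 against 2 and 2 on CAS, and Cep135 (a centriole protein) 0 and 2 against 1 and 1. Arl9, a small GTPase gene, had 1 and 1 on 129 against 1 and 2 on CAS, Thegl 2 and 3 against 3 and 3, and Hopx 4 and 7 against 6 and 5.

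Of the 15 coding genes that overlap the stretch, 6 had 129 higher in both replicates (the 5 members and Cracd), 3 had CAS higher in both (Ppat, Paics and Srp72) and 6 neither. Over all 17074 coding genes with a count, 14.5% had 129 higher in both replicates and 15.5% CAS. Counted by window, 10 of the 30 had 129 higher in both replicates and 4 had CAS higher, where 8.96% of all windows had 129 and 9.87% CAS higher. In 3 windows 129 exceeded CAS by at least 2 counts in both replicates, against 1.26% of all windows. Since the stretch was chosen for this difference and genes share windows, nothing is read from these shares. The comparison also depends on signal: of the 14502 windows with at least 6 counts, the total of the weakest window of the run, 15.7% had 129 higher in both replicates.

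Runs of this length were rare in the table. It held 3405 such runs on the 129 side, single windows included, of which 2 (0.0587%) had 6 or more windows. The other, of 7 windows, lies on chromosome 10 (66800001 to 67150000). On the CAS side 1 of 3694 runs (0.0271%) had 6 windows. The run was known when the stretch was chosen, so nothing is read from these counts.

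**Figure D3:**
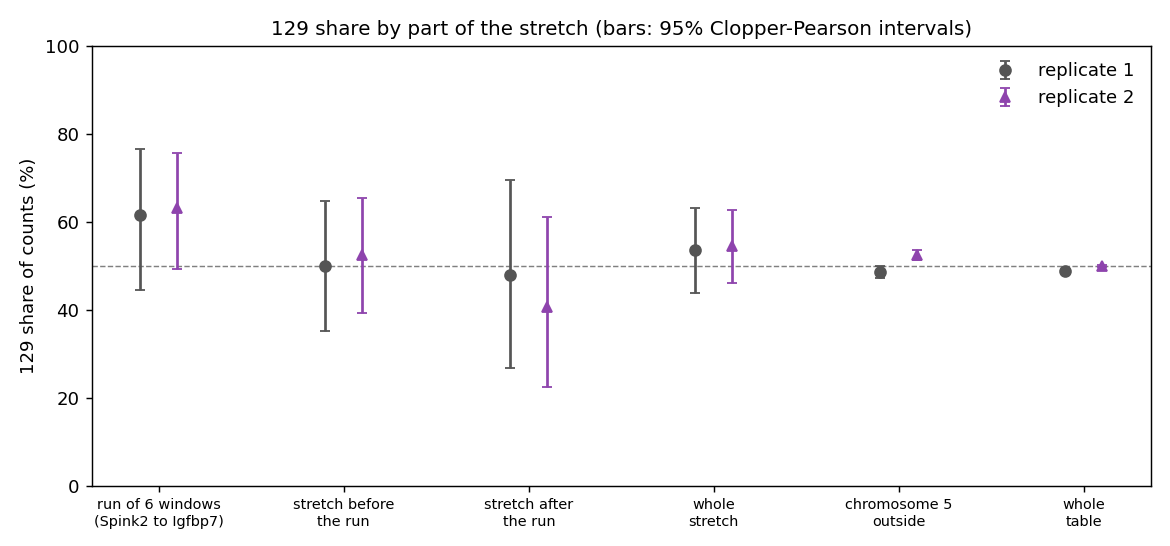
The 129 share of counts (percent) in the run, in the rest of the stretch before and after it, in the whole stretch, in chromosome 5 outside the stretch and in the whole table, for replicate 1 (circles) and replicate 2 (triangles) with 95% Clopper-Pearson intervals. The run lies at 61.5% and 63.2%, and the whole table at 48.8% and 49.9%.

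Over the whole stretch the 129 share was 53.6% (43.9 to 63.2%) of 110 counts in replicate 1 and 54.5% (46.0 to 62.8%) of 145 counts in replicate 2. Chromosome 5 outside the stretch had 48.6% in replicate 1 and 52.4% in replicate 2. The intervals of the stretch are wider than this difference, so the replicate spread of the stretch cannot be ranked against that of the chromosome. The 10 windows before the stretch, around Clock, the circadian transcription factor gene, held 9 and 9 counts on 129 against 9 and 14 on CAS. The 10 windows after it, without coding genes, held 3 and 9 counts on 129 against 1 and 10 on CAS.

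Total signal, both alleles summed, is not independent of the choice of the stretch, since a difference between alleles needs counts, and is given as a description. The window of Rest held 31 counts over both alleles and replicates, a total that 114 of 43941 windows (0.259%) and 7 windows of chromosome 5 reached. The window inside Igfbp7 held 26 (0.717% of windows had as many or more), that of Spink2 15 (5.50%), the one before Spink2 10 (14.9%), that of the Igfbp7 start 8 (22.5%) and that of Polr2b 6 (33.0%). Of the 114 windows with at least the total of the Rest window, 27.2% had 129 higher in both replicates and 23.7% CAS. Counts per window averaged 16 in the run, 8.5 in the whole stretch and 4.78 over all windows. In the stretch 2 of 30 windows (6.67%) were at 0 in all 4 columns, against 21.7% of the whole table. In the run the mean per window was 4 and 6 counts on 129 against 2.5 and 3.5 on CAS.

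**Figure D4:**
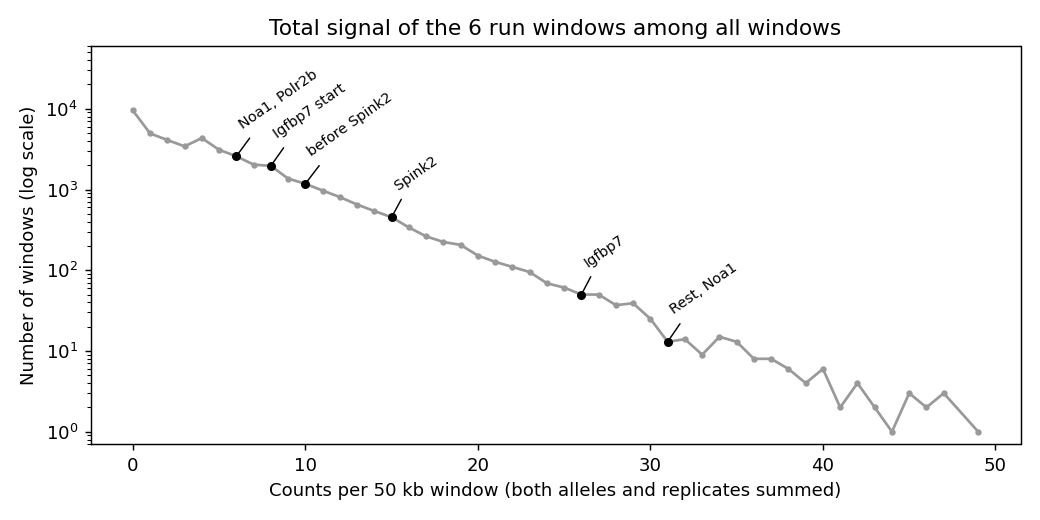
Number of windows of the table (log axis) by their counts summed over both alleles and replicates, with the 6 windows of the run marked by the genes they hold. The window of Rest and Noa1, at 31 counts, and that of Igfbp7, at 26, lie in the thin upper end, and that of Noa1 and Polr2b, at 6, does not.

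Start windows elsewhere with counts like those of Rest were found by the smallest sum of absolute differences over the 4 counts, among 14559 coding genes. No gene had a sum below 2. Pdgfc, a growth factor gene on chromosome 3, was closest with a sum of 2, at 7 and 10 counts on 129 against 6 and 6 on CAS. A sum of 3 was reached by 8 genes, of which the first in genome order are Dapp1 (7 and 10 on 129, 6 and 7 on CAS), Zfp518b (8 and 10 on 129, 5 and 5 on CAS) and the neighbours Enoph1 and Hnrnpdl, which share a window (8 and 9 on 129, 5 and 6 on CAS). With 4 counts from 2 libraries this likeness is weak.

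The partners of REST held counts on both alleles. Of 16 corepressors and partners listed, 15 had windows in the table and all 15 had counts, as did 17074 of 18577 coding genes. Of the 15, 2 had 129 higher in both replicates, 2 had CAS and 11 neither. Both directions were near the 14.5% (129) and 15.5% (CAS) of all coding genes with a count. The median 129 share, with replicates pooled, was 50.0%, as over all coding genes. The histone deacetylase gene Hdac2 had 4 and 5 counts on 129 against 2 and 4 on CAS, and Hmg20b, a subunit of the REST corepressor complex, 5 and 4 against 4 and 2. The scaffold gene Sin3a had 3 and 1 on 129 against 4 and 3 on CAS, and Sin3b 3 and 3 against 4 and 5.

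Neuronal genes known to be bound by REST held counts on both alleles as well. All 11 of 12 listed genes with windows in the table had counts, as did 17074 of 18577 coding genes. Of the 11, 4 had 129 higher in both replicates, 0 had CAS and 7 neither. All coding genes with a count had 14.5% with 129 and 15.5% with CAS higher. The median 129 share of the 11 was 55.9%, where that of all coding genes was 50.0%. The genes were chosen with earlier results known and nothing is read from these shares. Gria2, a glutamate receptor gene, had 4 and 10 counts on 129 against 3 and 6 on CAS. The sodium channel gene Scn2a had 4 and 4 against 2 and 3, and Calb1, a gene of a calcium-binding protein, had 3 and 4 against 2 and 2.

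For the families of the other members, the same 14.5% (129) and 15.5% (CAS) and the median of 50.0% over all coding genes are the background. Each tally includes the family's own member (Polr2b, Spink2 or Igfbp7), and the position of the members was selected on this same difference. Nothing is read from these shares. Of 11 RNA polymerase II subunit genes with counts (12 listed), 1 had 129 higher in both replicates, Polr2b, and 3 had CAS, with a median 129 share of 46.2%. The largest subunit gene, Polr2a, had 6 and 3 counts on 129 against 7 and 4 on CAS, Polr2j 3 and 3 against 5 and 4, and Polr2g 3 and 3 against 4 and 4. Of 9 Kazal-type inhibitor genes 3 had 129 and 1 had CAS higher, and their median was 50.0%. In this family Spink1 had 1 and 3 counts on 129 and 0 on CAS in both replicates, and Spink7 1 and 1 against 2 and 2. Of 7 IGF-binding protein genes 4 had 129 higher in both replicates, Igfbp1, Igfbp3, Igfbp5 and Igfbp7, and 0 had CAS, with a median of 61.5%. Igfbp1 and Igfbp3 are neighbours that share a window and had the same counts, 4 and 4 on 129 against 2 and 3 on CAS, so they are 1 observation. Igfbp5 had 3 and 4 against 1 and 2, and Igfbp7 had the highest sum of the family, over 3 windows where the others had 1 or 2. Igfbp1 and Igfbp3 are named after their values were seen.

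The labelled cell type was looked at through 6 stem cell loci (Pou5f1, Nanog, Sox2, Esrrb, Klf4 and Zfp42). All held counts, between 12 and 89 over both alleles and replicates, but so did 17074 of 18577 coding genes. Among these 6 loci, 129 was higher in both replicates in 1, CAS in 1 and neither in 4. Accessibility in 50 kb windows does not measure expression. Igfbp7 is also expressed in fibroblasts, and fibroblasts were the feeder cells. All 6 fibroblast loci (Col1a1, Col1a2, Thy1, Cd44, Vim and Twist2) held counts, between 2 and 13. Their sums were 9 and 15 on 129 against 10 and 7 on CAS, with 129 higher in both replicates in 3 of 6, which held 2 (Thy1), 6 (Col1a1) and 9 (Cd44) counts in all, and a median 129 share of 66.7%. Over all coding genes with a count 14.5% had 129 and 15.5% CAS higher, and the median was 50.0%. The part of feeder DNA in the values of the stretch was not tested.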

How the data were processed

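ATAC-seq of 2 replicates of F121-6 was used. Bowtie2, MACS2, SAMtools and bedtools and the build mm10 are named in the submitters' processing notes, without versions or roles. The authors deposited whole-number counts, which show no sign of scaling, in 4 columns (allele by replicate), with 0 further per-sample columns. The sources used here do not give what was counted or how alleles were assigned. The table was read whole in Python 3.11.15, and columns were mapped by replicate number and allele name. Coordinates are 1-based. Windows were assigned to every RefSeq gene of GRCm38.p6 that shares a base. A run is a set of adjacent windows with more counts on 129 than on CAS in each replicate, unscaled. Run finding was tried only on adjacent simulated windows that were all set higher on 129, so that check could not test where a run ends. Shares have exact Clopper-Pearson intervals at 95% (counting error only). edgeR 4.0.16 supplied TMM factors for 1 alternative, and no test was run. Named genes are the members, every coding gene of the stretch, the 2 genes per list and direction with the largest differences (ties included), and the 5 genes most like Rest. Members and lists were chosen with earlier results of these data known.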

Additional observations from a re-analysis of the deposited data

How the results depend on the processing

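Alternatives were tried for 8 results: the 129 share of the stretch and of each member gene, the number of windows with 129 higher in both replicates, and the longest run. Of 50 recomputed values 17 moved, 33 did not and 0 turned round, and no share crossed 50%. Part of this tally was fixed in advance. For Spink2, Rest and Polr2b the window of the gene start alone was the reported window, so that value could not move. Leaving out 1 replicate could not move a share either, since each of 2 replicates always lies within 1 SD of their mean. The stretch was chosen for windows with 129 higher in both replicates, so a member's share in 1 replicate was not free to fall below 50%. Numbers of windows and run lengths could not be scored as turned round. A share counted as moved when it differed by more than the SD of the 2 replicates, which was 0 for Spink2 and Polr2b. That SD leaves out counting error. A number of windows counted as moved when it differed by more than 1.5 times. The share of the stretch, reported as 54.1% ± 0.60 (SD, n = 2), was 54.7% with counts divided by column totals, 53.1% without the window of Rest, 52.8% with 10 further windows on each side and 56.2% over windows with a coding gene. Dividing by column totals gave 60.6% for Spink2 (reported 60.0%), 67.2% for Polr2b (66.7%) and 65.5% for Igfbp7 (65.0%), and TMM-scaled totals gave 60.04% for Spink2 and 66.71% for Polr2b. With 1 window added on each side the share was 60.4% for Spink2, 61.8% for Polr2b and 57.2% for Igfbp7. The window of the Igfbp7 start alone gave 73.3%, and for Noa1 that alternative was not run, since its strand is not in the tables used. Windows with 129 higher in both replicates, reported as 10, numbered 3 at a difference of 2 or more counts. The longest run was then 1 window in place of 6. Among pairs of adjacent windows the number was 5, scored as moved although pairs are fewer than windows, and the longest run was 4 windows. With counts divided by column totals, windows with 129 higher numbered 16. The 129 totals are the smaller, so ties then count as 129 higher: all 6 windows added had a tie in at least 1 replicate. Leaving out 1 replicate gave 14 windows either way and runs of 6 to 8 windows. Counts per window are small and their read depth is unknown, so the error of a difference of 1 count cannot be set.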
